A study of Sus scrofa with 24 samples.

Results

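Gene expression in jejunal Peyer's patch was compared with that in spleen in 6 crossbred piglets, using 12 of the 24 arrays of the series. The samples were chosen by their labels: 6 samples labelled Peyer, each a section of jejunum that carried a Peyer's patch, and 6 labelled Spleen, 1 of each from animals 68, 69, 70, 71, 73 and 75. Every pig was untreated, weaned at 28 days, fed ad libitum and killed by exsanguination after stunning at 10 weeks of age, and both tissues shared these conditions. The other 12 samples, patch-free jejunum and liver of the same pigs, served here as side values. Each sample gave 200 ng of total RNA (integrity number above 7.5), which carried the dye Cy3 onto 1 one-colour Agilent array.

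Spleen and Peyer's patch are both secondary lymphoid organs, built of B cell follicles and T cell zones, but they sample different fluids. Spleen filters blood: its red pulp holds macrophages that take up old red cells and recycle their haem iron, together with blood cells, and its white pulp answers antigens carried in blood. A Peyer's patch lies in the gut wall beneath a follicle-associated epithelium whose M cells carry antigen in from the lumen, and its germinal centres are known as a site where B cells switch to IgA.

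All values are levels on a log2 scale: the probe signal less the 75th percentile of its own array, so that a difference of 1 is 2-fold. Levels of 1 gene were compared between tissues, never levels of different genes. Differences are Peyer's patch minus spleen with the standard error (SE) of a limma fit that paired the tissues within animals (6 pairs). The threshold for calling a gene was an adjusted p below 0.05 together with a difference of 1 or more in size. The arrays measure whole pieces of tissue, in which fewer cells of a type and less RNA per cell cannot be told apart. Spleen arrays lay on 3 slides and Peyer's patch arrays on the other 3, so that tissue and slide cannot be told apart. Of the latter slides, 1 was scanned on another day. Liver arrays shared the slides of spleen, and patch-free jejunum arrays those of Peyer's patch, so the side values carry the same limit. The 75th percentile signal ran from 876.7 to 2261.9 on the Peyer's patch arrays and from 275.4 to 1098.1 on the spleen arrays.

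Both labels were first checked against the genes that define the tissues. Spleen arrays carried high levels of the macrophage and red cell genes of red pulp, and Peyer's patch arrays those of intestinal epithelium, in all 6 animals. The macrophage genes were also high in liver, at a mean level of 1.78 beside 2.31 in spleen. On 5 of the 6 Peyer's patch arrays the mean level of 19 B cell genes lay between 1.75 and 1.9, against -2.3 to -1.87 in patch-free jejunum. The Peyer's patch array of animal 71 stood apart at -0.57. Its nearest array was the patch-free jejunum of the same animal (r = 0.993 over probes), and its mean correlation was 0.956 with the other Peyer's patch arrays and 0.984 with jejunum. Whether that section held less patch or carries another sample's label cannot be told from these data. Every value over 6 animals includes it, and several lists whose counts or medians move without animal 71 are given without it as well. The spleen array of animal 73 stood apart in another way, with a mean level of -1.81 over 20 epithelial genes, where the other 5 spleen arrays lay between -4.19 and -3.39.

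**Figure D1:**
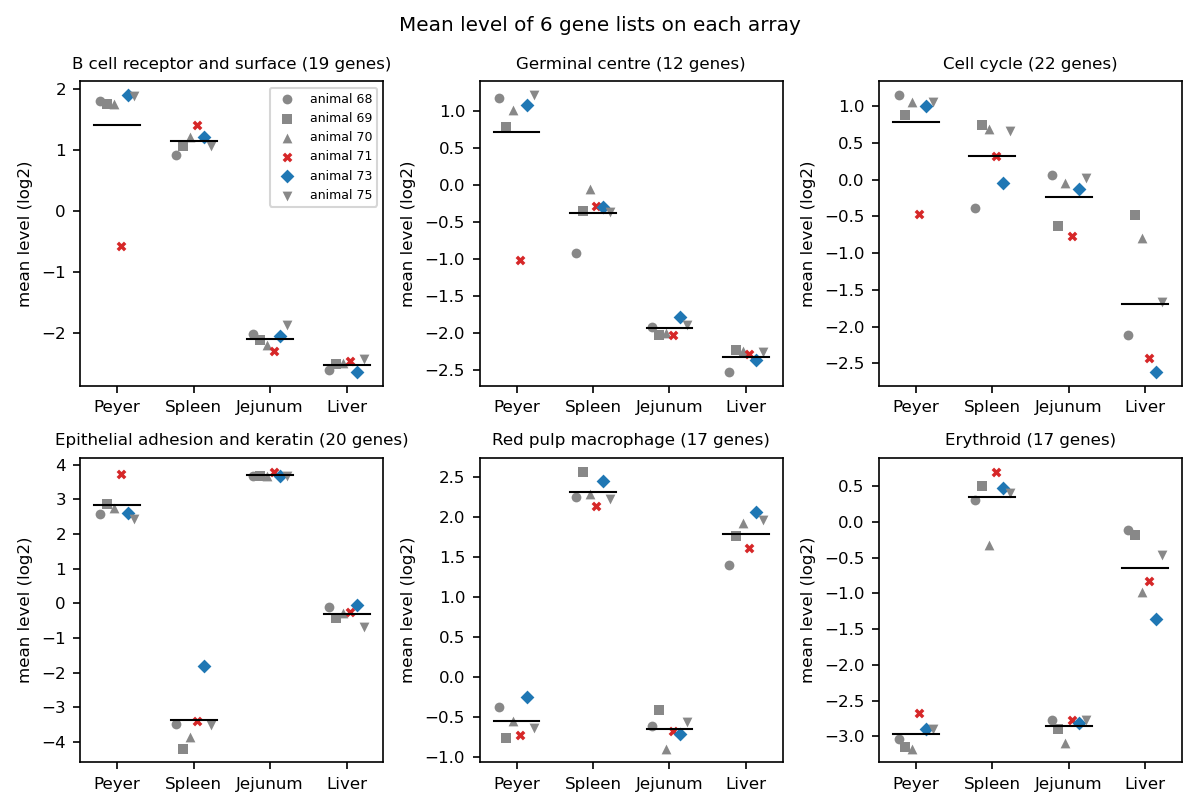
Mean level of 6 gene lists (log2, vertical axes) on each of the 24 arrays, by tissue; symbols are animals and lines are means of 6 arrays. The Peyer's patch array of animal 71 (crosses) sits below the other 5 in the B cell panel, and the spleen array of animal 73 (diamonds) sits above the other spleens in the epithelial panel.

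The 60-base probes of some of the genes described are shown here, because they are what each measurement reads; they were taken from the scanner files, 5′ to 3′, and each has an open reading frame over its whole length. PIGR carries IgA across epithelium, IGHA is the IgA heavy chain, GCSAM a germinal centre B cell protein, GP2 the M cell receptor for bacteria, EPCAM an epithelial adhesion molecule, CD163 the haemoglobin scavenger receptor of macrophages and HMOX1 the enzyme that opens haem. The 2 probes of MUC2, the gel-forming mucin of goblet cells, are shown because they gave different readings.
PIGR: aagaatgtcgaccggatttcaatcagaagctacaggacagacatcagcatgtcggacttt
IGHA: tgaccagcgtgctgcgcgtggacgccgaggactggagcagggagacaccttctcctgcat
GCSAM: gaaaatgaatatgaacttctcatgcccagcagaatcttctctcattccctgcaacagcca
GP2: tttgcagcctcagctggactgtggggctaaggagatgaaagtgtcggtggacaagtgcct
EPCAM: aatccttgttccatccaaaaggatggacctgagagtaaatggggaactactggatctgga
CD163: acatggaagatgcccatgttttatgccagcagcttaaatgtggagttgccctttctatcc
HMOX1: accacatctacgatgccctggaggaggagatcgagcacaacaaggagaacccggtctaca
MUC2, first probe: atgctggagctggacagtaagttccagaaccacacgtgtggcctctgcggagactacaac
MUC2, second probe: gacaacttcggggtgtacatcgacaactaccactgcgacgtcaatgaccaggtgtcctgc
These probes gave differences of 9.25 ± 0.47 for PIGR, 4.26 ± 0.4 for IGHA, 3.17 ± 0.48 for GCSAM and 10.62 ± 0.6 for EPCAM, with PIGR and EPCAM well above background on 1 spleen array. The GP2 probe was not well above background on any spleen array and was at least 7.14-fold higher. CD163 and HMOX1 went the other way, at -4.24 ± 0.25 and -5.82 ± 0.54. The first MUC2 probe did not differ past the threshold (-0.3 ± 0.38, adjusted p = 0.53), while the second was not well above background on any of the 6 spleen arrays and was at least 5.33-fold higher (adjusted p = 1.6e-05). Where a gene had several probes, the brightest is used below, so that MUC2 enters with the first.

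Of 10335 genes tested, 1082 (10.5%) were higher in Peyer's patch and 1485 (14.4%) were lower, 2567 (24.8%) in all. These shares are the background for every count of list members below. The higher genes reached further: 184 were at least 32-fold higher, against 23 at least 32-fold lower. To be tested, a gene had to stand well above background throughout the 6 arrays of one tissue or of both: 9311 genes passed in both tissues, 858 through Peyer's patch alone and 166 through spleen alone, and genes of the last 2 kinds are dim in the other tissue by the way they passed. The 6 and 6 arrays did not overlap for 1399 genes with Peyer's patch above (13.5%) and for 1859 with spleen above (18%). The balance of directions depends on the scaling: the median difference of all genes was -0.1, moved to 0.17 when arrays were centred on their medians, and the higher share of called genes was then 59.9% in place of 42.2%.

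**Figure D2:**
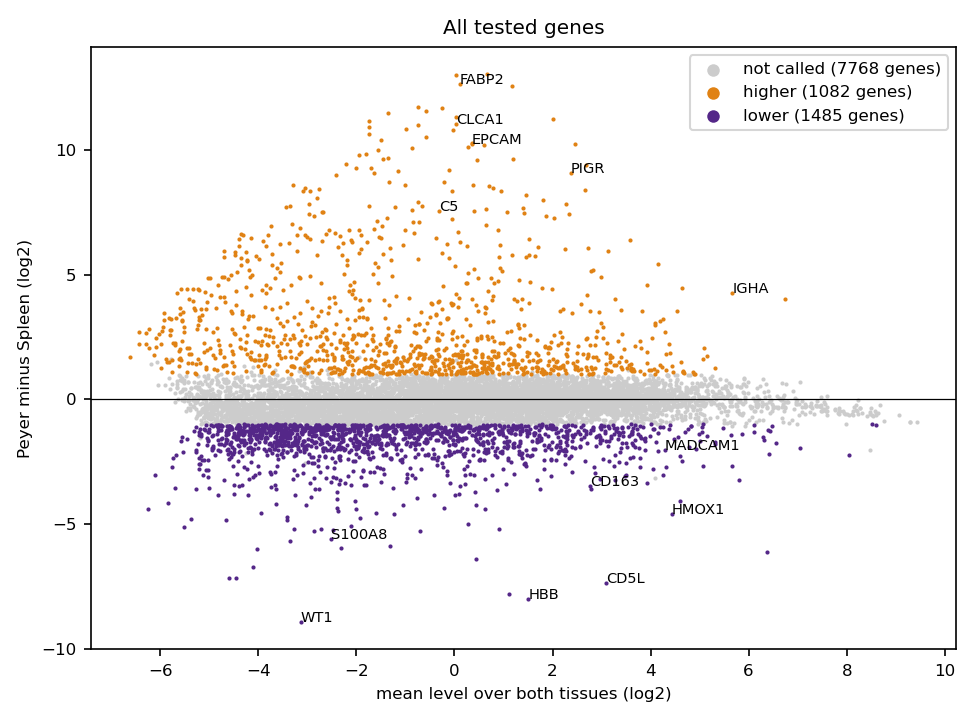
Difference between the tissues (log2, vertical axis) against the mean level over both (log2, horizontal axis) for the 10335 tested genes. Orange points are the 1082 genes higher in Peyer's patch and purple points the 1485 lower; the former extend to differences above 12 and the latter to -8.91 (WT1).

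Genes of the absorptive epithelium were far higher in Peyer's patch. Of 32 tested genes of digestion and absorption, 31 were higher in Peyer's patch, against a background of 10.5% of all genes, with a median difference of 6.28 (SD 0.82 over 6 animals). The remaining gene, SLC10A2 (the ileal bile acid transporter), differed by 0.3 ± 0.22 (adjusted p = 0.27). Of these 32 genes, 18 passed the filter through Peyer's patch alone. All 20 tested epithelial adhesion and keratin genes were higher as well, with a median of 6.38 (SD 1), and 9 of them had passed through Peyer's patch alone. Genes that passed in this way were not well above background on at least 1 spleen array, so that their direction leans on the filter and these counts are descriptions.

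FABP2, the intestinal fatty acid binding protein, had levels in Peyer's patch of 5.69 at the lowest, 6.3 at the median and 7.76 at the highest, and in spleen of -7.92, -7.18 and -0.83. Spleen was well above background on 1 array only, that of animal 73, and the 2 tissues did not overlap. The difference was 12.65 ± 0.98 (adjusted p = 3.4e-05). Without animal 73 no spleen array was well above background, which leaves a lower bound of 11.9. APOA4 (a lipoprotein of chylomicrons), KRT20 (an enterocyte keratin) and EPCAM differed by 12.56 ± 1.17, 11.7 ± 0.82 and 10.22 ± 0.63. Without animal 73 EPCAM differed by 10.95, while APOA4 and KRT20 had lower bounds of 12.86 and 10.45 for the same reason. SI, the sucrase-isomaltase of the brush border, ran from 3.88 to 5.59 in Peyer's patch and from -8.01 to -5.4 in spleen.

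For 93 of the higher genes no spleen array was well above background, so their fold is a lower bound, set against the dimmest signal that was above background. MEP1A, a brush border metalloprotease, was at least 626-fold higher and SLC15A1, the peptide transporter, at least 586-fold higher (adjusted p = 8.5e-07 for both). SLC5A11 (an inositol transporter), CDHR2 (a cadherin of microvilli) and PRR15 were at least 104-fold, 101-fold and 93.8-fold higher. Among genes well above background on all 12 arrays, LGALS4 (an epithelial galectin) led with 9.39 ± 0.59. It was followed by PIGR (9.07 ± 0.51), ENPEP (aminopeptidase A, 8.55 ± 0.34), MTTP (which loads lipid onto apolipoprotein B, 8.45 ± 0.48), KRT8 (8.38 ± 0.77), FCGBP (a mucus protein, 8.35 ± 0.31), SLC5A1 (the sodium-glucose transporter, 8.17 ± 0.35) and GUCA2A (guanylin, 7.98 ± 0.39).

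The mean level of the 32 absorptive genes was 2.97 ± 0.55 (SD, n = 6) in Peyer's patch, -3.76 ± 0.6 in spleen and 3.93 ± 0.09 in patch-free jejunum. The Peyer's patch array of animal 71 was the highest at 3.99, where patch-free jejunum reached 4.07. FABP6, the ileal bile acid binding protein, had another pattern: its mean level was -0.79 in patch-free jejunum, while it ran from 2.08 to 3.5 in spleen. In Peyer's patch it lay at 2.71 in animal 71, within the range of spleen, and the median of the 6 was 6.66. The difference was 3.23 ± 0.44 (adjusted p = 0.00069), and 3.74 without animal 71. Its 3 probes all gave differences past the threshold.

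Genes of other epithelial lineages were mostly higher. Of 15 goblet and Paneth cell genes 11 were higher (6 of the 15 had passed through Peyer's patch alone), with a median of 4.94 (SD 1.17). Among them were DMBT1 (a mucosal scavenger receptor, 11.68 ± 1.02), CLCA1 (a goblet cell secretory protein, 11.04 ± 0.55) and LYZ (lysozyme, 4.46 ± 0.35). DMBT1 was well above background on 1 spleen array and CLCA1 on 2. Without animal 73 DMBT1 had a lower bound of 10.86. Of 17 intestinal transcription factors 13 were higher and 1, PDX1, was lower at -1.14 ± 0.32, although a second PDX1 probe was higher. Of these 17, 9 had passed through Peyer's patch alone; among the 8 bright on all 12 arrays 5 were higher, and 8 of the 17 with another background correction. KLF5, a factor of dividing crypt cells, was higher by 6.29 ± 0.35. HNF4A did not differ past the threshold by its brightest probe (0.36 ± 0.24), but was higher by 2.71 in the mean of its probes.

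Of 17 enteroendocrine genes 11 were higher and 1 (SCG3) lower, and 10 of the 17 had passed through Peyer's patch alone. The median difference was 2.22, or 1.23 with the genes dim in every spleen at their bounds. Without animal 71, 9 were higher, and with another background correction 7. Among the 7 bright on all 12 arrays 3 were higher. The hormone genes SST (somatostatin), GCG (proglucagon) and CCK (cholecystokinin) were higher by 9.82 ± 0.52, 8.06 ± 0.59 and 5.33 ± 0.18. SST was well above background on 1 spleen array and GCG on 2, so that these 2 sizes rest mostly on background in spleen. Without animal 73 SST had a lower bound of 8.53. CHGA, the granule protein chromogranin A, is uncertain: its brightest probe read -0.54 ± 0.18 and of the other 3 probes, 2 read 1.86 and 7.83 and 1 was not well above background on any spleen array (at least 1.94-fold higher). That brightest probe has 73.3% G and C and the other 3 have 36.7% to 60%.

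M cell and follicle-associated epithelium genes did not move together: of 9 tested, GP2 and CCL20 were higher and PGLYRP1 and AIF1 lower, with a median of -0.68 (SD 0.58), or -0.15 without animal 71 and -0.41 without 69. GP2 had levels of -1.55, 2.88 and 4.75 in Peyer's patch at the lowest, median and highest, and of -2.44, -2.28 and -1.44 in spleen. The lowest Peyer's patch value was that of animal 71 and fell among the spleens; the difference was 4.68 ± 0.8 (adjusted p = 0.002), and 5.64 without that animal. Patch-free jejunum had a mean GP2 level of -4.06. CCL20, the chemokine that draws CCR6-bearing cells to the follicle-associated epithelium, was higher by 6.07 ± 0.41, with a mean level in patch-free jejunum of 1.22.

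**Figure D3:**
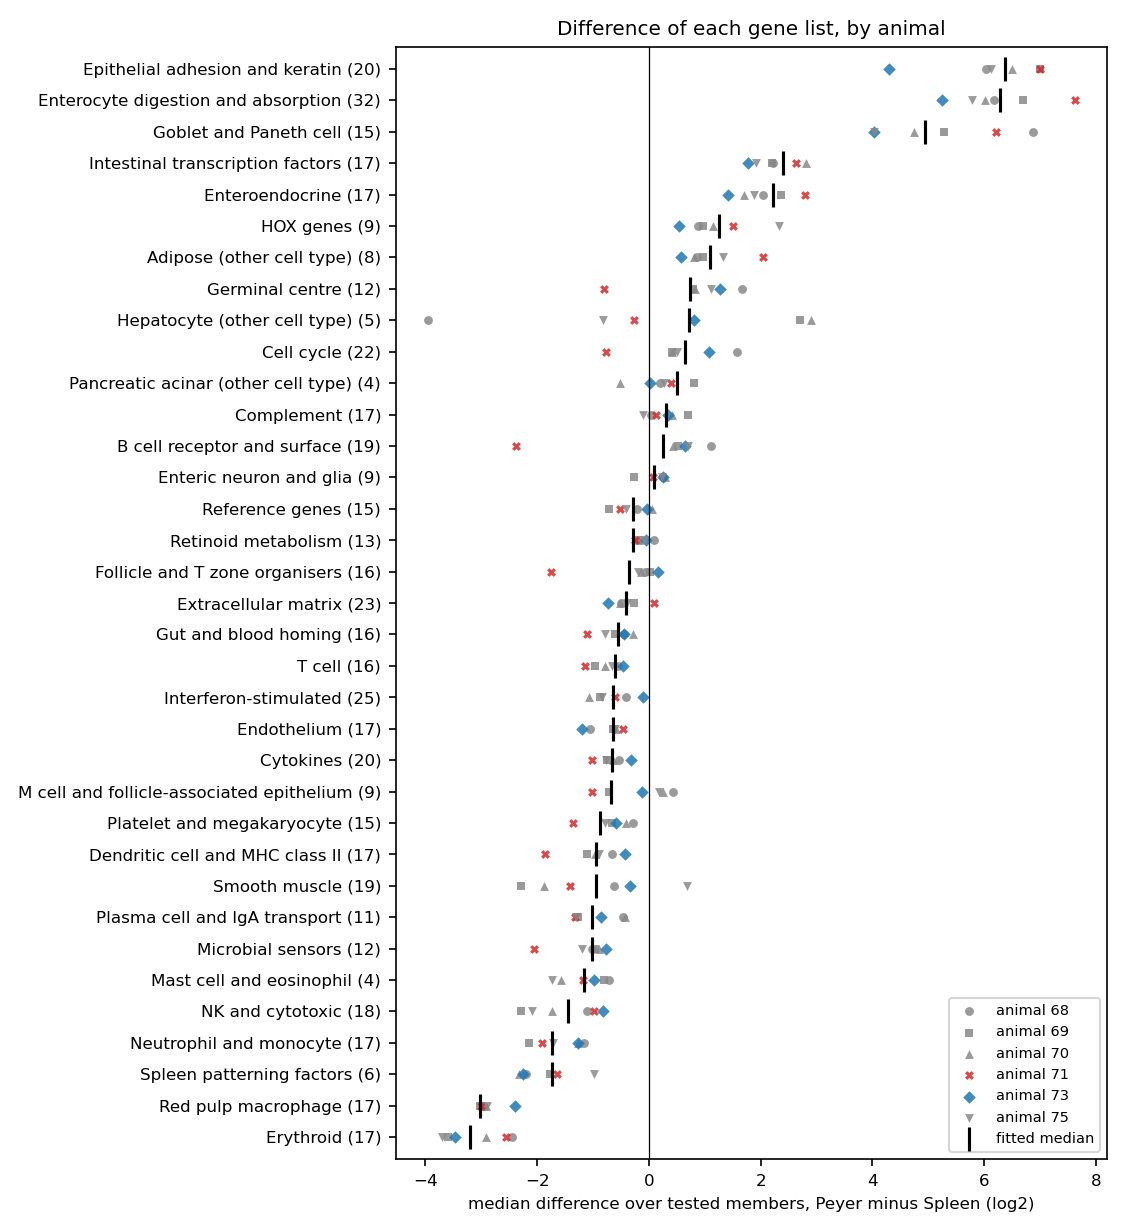
Median difference over the tested members of 35 gene lists (log2, Peyer's patch minus spleen, horizontal axis); symbols are the 6 animals, vertical bars the fitted medians and numbers in brackets the genes tested. Epithelial lists lie furthest right and the erythroid and red pulp macrophage lists furthest left; animal 71 (crosses) departs from the others in the B cell and follicle lists.

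Most B cell genes did not pass. Of 19 B cell receptor and surface genes, 3 were higher (CD24, VPREB3 and EBF1) and 2 lower (BTK and CD180). These counts are near the shares over all genes, 10.5% higher and 14.4% lower. The list median was 0.25. The median was -2.38 in animal 71 and between 0.43 and 1.12 in the other 5. Without animal 71, 7 were higher, 1 was lower and 11 did not pass, with a median of 0.8.

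CR2, the complement receptor of mature B cells and follicular dendritic cells, had levels of -3.29, 1.32 and 2.04 in Peyer's patch at the lowest, median and highest and of -1.08, 0.04 and 0.77 in spleen. Only the Peyer's patch array of animal 71 lay below spleen. The difference was 0.73 ± 0.7 (adjusted p = 0.41) over 6 animals and 1.56 (adjusted p = 0.0051) without animal 71. CD79B, part of the B cell receptor, read 0.41 ± 0.55 (adjusted p = 0.55) and 1.09 (adjusted p = 0.00061) without it. MS4A1, which encodes CD20, read -0.03 ± 0.54 (adjusted p = 0.96) and 0.63 without it, below the threshold of size. CD24 and BTK kept their direction in all 6 animals with no overlap. CD24 was higher by 2.9 ± 0.17, and its mean level in patch-free jejunum was 5.02. BTK, a kinase of the B cell receptor, was lower at -2.11 ± 0.36.

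Of 12 germinal centre genes tested, 5 were higher in Peyer's patch, among them GCSAM, BACH2 and MEF2B, and 7 did not pass, with a median of 0.74 (SD 0.85); without animal 71, 7 passed with a median of 1.03, and without any 1 of the other 5 animals, 3. GCSAM ran from -1.73 to 1.01 in Peyer's patch and from -3.27 to -2.21 in spleen with no overlap, and was higher by 2.94 ± 0.44 (adjusted p = 0.001). BCL6, the transcription factor of germinal centre B cells, read 0.73 ± 0.27 (adjusted p = 0.05) and was not called; without animal 71 it was higher by 1.04 (adjusted p = 0.001).

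**Figure D4:**
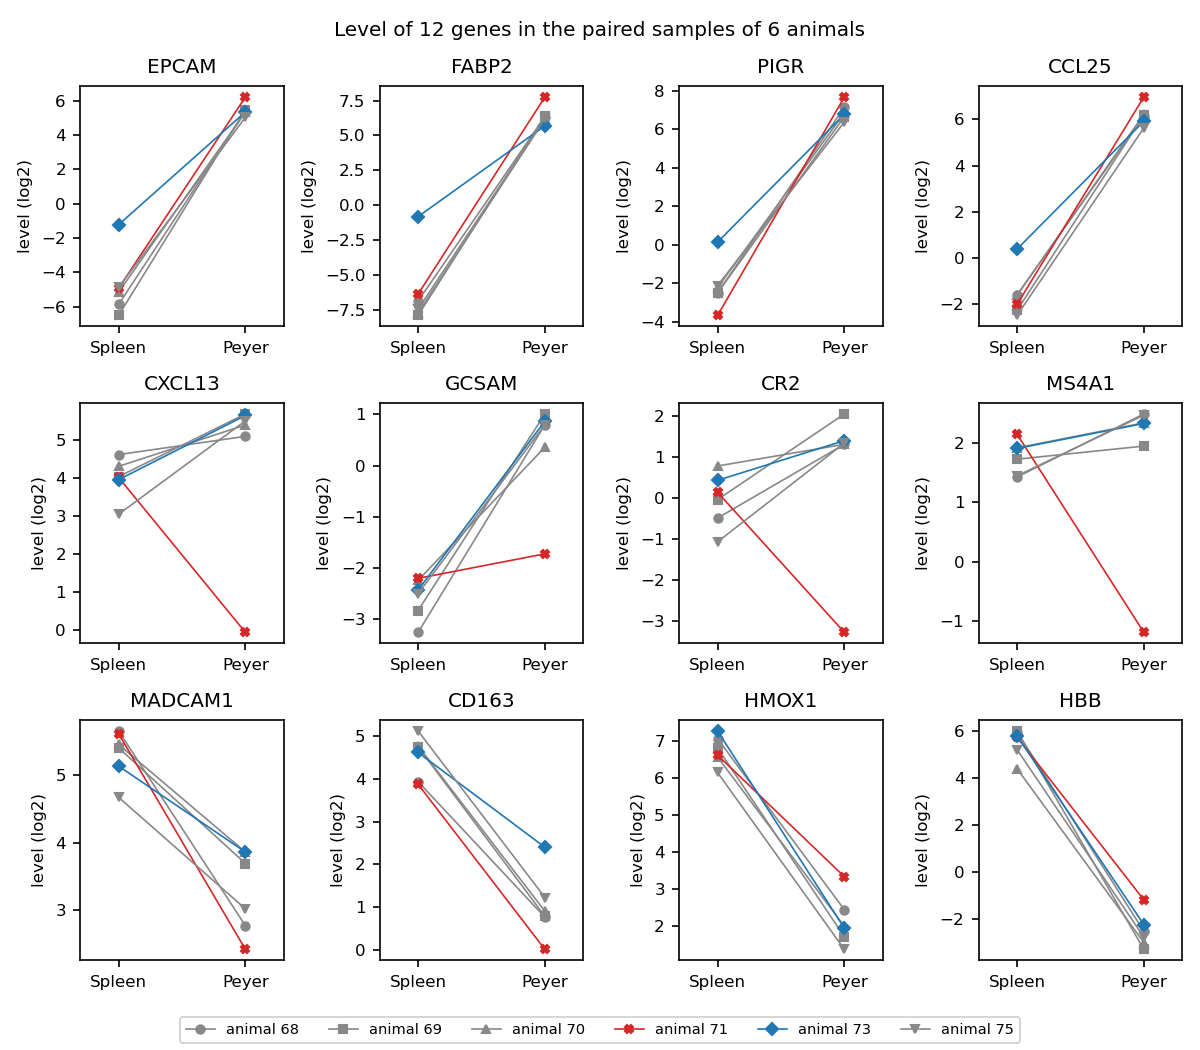
Level (log2, vertical axes) of 12 genes in spleen and Peyer's patch; each line joins the 2 samples of 1 animal. Lines of epithelial genes rise and those of macrophage and red cell genes fall in all 6 animals, while animal 71 (red) goes down for CR2, MS4A1 and CXCL13 where the other 5 go up.

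Genes that dividing cells express gave no call in either direction over 6 animals in limma: of 22 tested, 11 had an unadjusted p under 0.05, 10 of them higher and 1 lower. Their median was 0.64 (SD 0.79), at -0.77 in animal 71. Without that animal 7 were higher, and with arrays centred on their medians also 7. MCM6, a subunit of the replicative helicase, read 1 ± 0.25 (adjusted p = 0.01), just under the threshold of size, and 1.18 without animal 71, while MKI67, the proliferation marker Ki-67, read -0.97 ± 0.41 (adjusted p = 0.078).

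Most chemokines and cytokines that lay out lymphoid tissue did not pass. Of 16 tested, 1 was higher and CXCL12, CCL21, TNF and ID2 were lower, beside 10.5% and 14.4% of all genes. The median was -0.36. Without animal 71, 4 were higher and 3 lower. The balance depends on the scaling: with median centring 2 were higher and 1 lower, with a median of -0.09, and with quantile normalization the median was -0.11. CXCL13, which draws B cells into follicles, ran from -0.06 to 5.69 in Peyer's patch and from 3.05 to 4.62 in spleen. It read 0.55 ± 0.77 (adjusted p = 0.57) over 6 animals and 1.47 (adjusted p = 0.0052) without animal 71, whose Peyer's patch held the lowest value. CCL19, which guides T cells and dendritic cells through CCR7, read 1.18 ± 0.57 (adjusted p = 0.11) and 1.86 (adjusted p = 0.00088) without that animal.

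CCL21, the other CCR7 ligand, was lower at -1.22 ± 0.33 (adjusted p = 0.015) with overlap of the tissues, and lost its call without animal 68 or with median centring (-0.96 in both). CXCL12, the ligand of CXCR4, was lower at -1.29 ± 0.25 (adjusted p = 0.0033). CCR7 itself (-1.13 ± 0.5, adjusted p = 0.09) and LTB, a lymphotoxin (0.1 ± 0.46, adjusted p = 0.87), did not pass.

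Genes of lymphocyte homing divided. Of 16 tested, 4 were higher: the chemokine CCL25 and its receptor CCR9, and CCL28 and its receptor CCR10. The lower genes were 7: MADCAM1, ITGA4, CCR6, VCAM1, ICAM1, ITGAL and S1PR1. CCL25, the chemokine of small intestinal epithelium, was at 5.64, 6.18 and 6.98 in Peyer's patch and at -2.51, -1.83 and 0.37 in spleen, with animal 73 the highest spleen. The difference was 7.81 ± 0.4 (224-fold, adjusted p = 4.8e-06). Patch-free jejunum had mean levels of 7.34 for CCL25, 0.31 for CCR9 and -0.34 for CCL28. In Peyer's patch these means were 6.19, 0.32 and -1.52.

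CCR9 was higher by 1.82 ± 0.13 (3.53-fold) with no overlap. CCR10 was higher by 1.46 ± 0.14. CCL28 was higher by 4.48 ± 0.78, but its tissues overlapped and it was well above background on only 3 spleen arrays. Among the animals the CCL28 difference ran from 0.96 to 7.19. MADCAM1, the vascular addressin that binds integrin alpha4beta7, was lower in Peyer's patch. Its levels there were 2.42, 3.36 and 3.86, against 4.67, 5.43 and 5.65 in spleen, with no overlap. The difference was -2.05 ± 0.28 (4.14-fold, adjusted p = 0.00061), -1.82 without animal 71, and a second probe gave -1.97 ± 0.28. Of the 2 chains of that integrin, ITGA4 was lower at -2.43 ± 0.23 and ITGB7 did not pass (-0.18 ± 0.21, adjusted p = 0.49).

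Antibody genes split by class. IGHA was at 7.2, 7.86 and 8.15 in Peyer's patch and at 2.1, 3.8 and 5.06 in spleen. No Peyer's patch value reached down to spleen, and the difference was 4.26 ± 0.4 (19.2-fold, adjusted p = 9.3e-05), with the other 2 probes at 3.9 and 3.97. The mean level in patch-free jejunum was 7.74. IGHM, the IgM heavy chain, was lower at -2.25 ± 0.31 (adjusted p = 0.0007), and IGHG, a heavy chain of IgG, did not pass (-1.34 ± 0.53, adjusted p = 0.064); immunoglobulin genes are alike in sequence and their probes may share targets.

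PIGR had levels of 6.37, 6.81 and 7.67 in Peyer's patch and of -3.68, -2.38 and 0.13 in spleen, and was 537-fold higher. JCHAIN, which joins IgA and IgM into polymers, was lower at -1.32 ± 0.46 (adjusted p = 0.042), but its call was lost without animal 69 (-0.78), 71 (adjusted p = 0.083), 73 (adjusted p = 0.076) or 75 (adjusted p = 0.062). Of the 11 plasma cell and IgA transport genes, PIGR and IGHA were higher and 5 were lower, with a median of -1.01 (SD 0.42). The 5 came to 3 without any 1 of the animals 71, 73 and 75, or with median centring.

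Some T cell genes were lower in Peyer's patch. Of 16 tested, CD247, CD4, CD27, LEF1 and TRAT1 were lower and 11 did not pass, with a median of -0.6 (SD 0.26) beside -0.1 over all genes; with median centring 2 were lower. TRAT1, an adaptor of the T cell receptor complex, was lower at -1.38 ± 0.15 with no overlap. CD4 was lower at -1.13 ± 0.15, and by -0.86 with median centring, below the threshold of size. CD3E, a chain of the receptor complex, and CD8A read -0.61 ± 0.13 (adjusted p = 0.0066) and -0.44 ± 0.23 (adjusted p = 0.14).

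Of 18 genes of NK cells and cytotoxicity 12 were lower, against a background of 14.4%, and the granzyme genes GZMA and GZMB were higher; the median was -1.45 (SD 0.62). EOMES, a transcription factor of NK and cytotoxic T cells, was at -3.72, -2.68 and -1.92 in Peyer's patch and at 0.5, 1.43 and 1.67 in spleen. The tissues did not overlap, and the difference was -3.95 ± 0.14 (adjusted p = 1.3e-06). KLRC1, an NK receptor, was lower at -4.57 ± 0.32 and GNLY, a cytolytic granule protein, by -1.43 ± 0.36. As KLRC1 was well above background on only 2 Peyer's patch arrays, its size rests mostly on background there.

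GZMA was 1 of the 2 higher genes of its list: at 1, 1.84 and 2.8 in Peyer's patch against -4.44, -1.67 and -0.36 in spleen, it was higher by 3.8 ± 0.41 (13.9-fold, adjusted p = 0.0002). Its mean level in patch-free jejunum was 2.75. LY49, which encodes an NK receptor, was not well above background on any Peyer's patch array and was at least 5.82-fold lower.

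Genes listed for red pulp macrophages were mostly lower in Peyer's patch, though SPIC and SLC40A1 of that list were not tested. Of 17 macrophage genes 14 were lower in Peyer's patch and 3 (MRC1, VSIG4 and SLC11A1) did not pass; the median was -3.02 (SD 0.23), and it lay between -3.04 and -2.41 in the 6 animals. CD163 was at 0.02, 0.85 and 2.4 in Peyer's patch and at 3.87, 4.68 and 5.11 in spleen. With no overlap, the difference was -3.48 ± 0.24 (11.2-fold, adjusted p = 2e-05). HMOX1 was lower at -4.61 ± 0.25 (24.4-fold) and CD5L, a secreted protein of tissue macrophages, by -7.35 ± 0.29 (163-fold).

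The 17 macrophage genes had a mean level of -0.55 ± 0.21 (SD, n = 6) in Peyer's patch, -0.65 ± 0.16 in patch-free jejunum and 2.31 ± 0.16 in spleen. Liver was near spleen at 1.78 ± 0.25, so that the list is not particular to spleen. Mean levels in liver and spleen were 4.46 and 4.5 for CD163, and 7.32 and 6.76 for CD5L. CLEC4F, a lectin of macrophages, was not well above background on any Peyer's patch array and was at least 39.8-fold lower. The metabolic enzyme genes ARG1 (arginase) and SDS (serine dehydratase) were lower at -5.88 ± 0.3 and -5.27 ± 0.4. Both are also genes of hepatocytes, and ARG1 had a mean level of 5.63 in liver against a spleen median of 1.69.

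Red cell genes were lower in Peyer's patch in 13 of 17 cases, against 14.4% of all genes, with a median of -3.2 (SD 0.55). Of the 17, 3 had passed through spleen alone. Among the 14 bright on all 12 arrays 10 were lower, with a median of -1.92. HBB, the beta globin, was at -3.28, -2.64 and -1.18 there and at 4.39, 5.76 and 5.99 in spleen. The tissues were far apart in every animal, at a difference of -8 ± 0.29 (256-fold, adjusted p = 1.3e-06). AHSP, the chaperone of alpha globin, and HBA, the alpha globin, were lower at -7.79 ± 0.22 and -6.1 ± 0.19. ALAS2, the erythroid enzyme that opens haem synthesis, was lower at only -1.07 ± 0.22, and the call was lost without animal 73 (-0.92) or 75 (-0.98), with median centring (-0.8), with quantile normalization (-0.75) and with another background correction (-0.96).

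SLC4A1, the red cell anion exchanger, did not pass by its brightest probe (0.09 ± 0.15), whereas its second probe, not well above background on any Peyer's patch array, was at least 9.45-fold lower. The animals were exsanguinated, and how much blood each tissue held was not measured. Of 15 platelet and megakaryocyte genes 6 were lower and SELP, also a gene of endothelium, was higher. NFE2, a transcription factor of megakaryocytes and red cell precursors, was lower at -5.23 ± 0.27, while ITGA2B, the platelet integrin, read -0.4 ± 0.13 and PF4, a platelet chemokine, -1.21 ± 0.28, or -0.94 and not called with median centring.

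Of 17 neutrophil and monocyte genes 12 were lower, with a median of -1.73 (SD 0.4); without animal 71, 9 were lower with a median of -1.67. S100A8, a subunit of calprotectin, was at -6.53, -5.4 and -3.45 in Peyer's patch and at -0.44, 0.2 and 1.26 in spleen. No array overlapped, and the difference was -5.59 ± 0.46 (adjusted p = 4.4e-05). BPI, the bactericidal permeability-increasing protein, was the 1 higher gene at 6.57 ± 0.44. Its mean level in patch-free jejunum was 1.81, beside a Peyer's patch median of 1.38. S100A8 was well above background on only 4 Peyer's patch arrays and BPI on only 3 spleen arrays, so both sizes rest partly on background. Of the 17 genes, 3 had passed through spleen alone and 1 through Peyer's patch alone. Among the 13 bright on all 12 arrays 9 were lower and 0 higher.

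Dendritic cell and MHC class II genes were lower in 8 of 17 cases, against 14.4% of all genes. The median was -0.94 (SD 0.49), at -1.86 in animal 71. Without that animal 6 were lower with a median of -0.82, and with median centring 5. XCR1 and CADM1, both markers of cross-presenting dendritic cells, were lower at -2.81 ± 0.22 and -2.12 ± 0.16, each with no overlap, and CD74, the invariant chain, by -1.48 ± 0.24. Of 12 microbial sensors 6 were lower: TLR2, TLR4, TLR7, TLR8, TLR9 and LY96. Their list had a median of -1.02, and without animal 71, 5 were lower with a median of -0.81. TLR8, a sensor of RNA, was at -4.51, -4.15 and -3.61 in Peyer's patch and at -0.15, 0.07 and 0.08 in spleen. TLR4, the lipopolysaccharide receptor, was lower at -3.04 ± 0.16 and TLR8 by -4.09 ± 0.19, with adjusted p of 5.6e-06 and 2.9e-06.

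Of 20 cytokine genes 7 were lower, against 14.4% of all genes, among them IL6 (-3.31 ± 0.34) and IL10 (-2.45 ± 0.21). The higher genes were CXCL8, a neutrophil chemokine, at 3.71 ± 0.37, CSF2, a growth factor of myeloid cells, at 2.05 ± 0.36 and IL5, the eosinophil factor, at 1.38 ± 0.22. All 3 had passed through Peyer's patch alone, and with another background correction 1 was higher. IL6 on the Peyer's patch array of animal 71 was -5.72, where the median was -2.61 and patch-free jejunum averaged -6.26. Of 25 interferon-stimulated genes 9 were lower, against 14.4% of all genes, and OAS1 (2.41 ± 0.46) was higher. Their mean level was highest in animal 73 in both tissues, at 3.21 in Peyer's patch and 3.36 in spleen, where the other animals ran from 1.29 to 2.11 and from 1.9 to 3.11.

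Mast cell and eosinophil genes were few: of 4 tested, HDC, the histamine-forming enzyme, was higher by 1.76 ± 0.25 (0.56 and not called with another background correction). KIT, MS4A2 and CCR3 were lower, CCR3 (the eotaxin receptor) by -3.82 ± 0.29. CCR3 was well above background on only 2 Peyer's patch arrays.

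Complement genes moved both ways, 8 of 17 higher and 6 lower, beside 10.5% and 14.4% of all genes. C5 was at 2.98, 3.32 and 4.42 in Peyer's patch and at -4.94, -4.03 and -3.02 in spleen. The difference was 7.54 ± 0.33 (186-fold, adjusted p = 2.5e-06), and C6 (6.22 ± 0.2), CFB (5.15 ± 0.32) and C3 (2.98 ± 0.14) were higher with no overlap. All 4 had mean levels in patch-free jejunum above those of Peyer's patch: 4.96 for C5, 4.12 for C6, 6.17 for CFB and 5.82 for C3. C1R, C7, CFP, C5AR1, CD55 and SERPING1 were lower.

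Genes of organ position came next. WT1, a transcription factor required for spleen development, was at -9.1, -7.82 and -4.76 in Peyer's patch and at 0.39, 1.34 and 2.18 in spleen. It was well above background on 1 Peyer's patch array, that of animal 75, and lower at -8.91 ± 0.61 (adjusted p = 1.7e-05). NR5A1, needed for adrenal, gonad and spleen vessels, was lower at -3.03 ± 0.32 and was well above background on only 2 Peyer's patch arrays. In all, 4 of 6 spleen patterning genes were lower, against 14.4% of all genes. Of the 6, 2 had passed through spleen alone and 1 through Peyer's patch alone. Among the 3 bright on all 12 arrays 2 were lower, with a median of -1.05. Of 9 HOX genes 5 were higher (3 with another background correction), against 10.5% of all genes. Among these 9, 2 had passed through Peyer's patch alone, and of the 7 bright on all 12 arrays 4 were higher. The higher genes included HOXC4 (2.53 ± 0.21) and HOXA5 (2.43 ± 0.16, 5.39-fold), each with no overlap.

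Of 23 extracellular matrix genes 4 were higher and 4 lower (beside 10.5% and 14.4% of all genes), and 8 were lower in the mean of each gene's probes: FBLN1, fibulin 1, was higher by 3.64 ± 0.17 and BGN, the proteoglycan biglycan, lower at -4.09 ± 0.2. Of 17 endothelial genes 5 were lower, against 14.4% of all genes. Among them were ICAM2, an adhesion molecule (-2.09 ± 0.2), and TIE1, a vascular receptor (-1.97 ± 0.39). Of 19 smooth muscle genes 8 were lower, but 4 without animal 71 or 70, 5 without 68 or 69, 12 without 75 and 5 without the pairing by animal. Their mean level ranged from 0.45 to 3.5 among Peyer's patch arrays and from 2.23 to 3.09 among spleens. ACTA2, the alpha actin of smooth muscle, was lower at -2.18 ± 0.16 with no overlap, while ACTG2, the enteric gamma actin (-0.24 ± 0.47), and DES, desmin (-0.94 ± 0.47), did not pass and MYH11, the smooth muscle myosin, lost its call without animal 68, 70 or 71.

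Of 9 enteric neuron and glia genes, PRPH (a neuronal filament, at least 7.63-fold higher), RET (a receptor of enteric neuron precursors, 2.18 ± 0.47) and NCAM1 were higher and STMN2 lower. The 3 higher genes had all passed through Peyer's patch alone. With another background correction RET read 0.31 and lost its call. Of 13 retinoid genes 4 were higher and 3 lower, beside 10.5% and 14.4% of all genes. Among the 13, 3 had passed through Peyer's patch alone. Of the 10 bright on all 12 arrays 2 were higher and 3 lower. ALDH1A1, which makes retinoic acid, was higher by 6.46 ± 0.38 and LRAT, which stores retinol as ester, by 5.56 ± 0.42. LRAT was well above background on 1 spleen array, and without animal 73 it had a lower bound of 3.95. The mean level of ALDH1A1 in patch-free jejunum was 4.02, above the Peyer's patch median of 2.6.

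Several genes named by size alone had no list. KAZALD1 (a secreted matrix protein, -6.39 ± 0.21) and TNP2 (a spermatid chromatin protein, -5.95 ± 0.21, with all 3 probes lower) were far lower in Peyer's patch. SNCG (gamma synuclein), FIGN and CYP46A1 (cholesterol 24-hydroxylase) were not well above background on any Peyer's patch array and at least 47.7-fold, 10.4-fold and 5.55-fold lower.

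Genes of neighbouring tissues were read as a check of the pieces collected. Hepatocyte genes varied among spleens: the mean level of 5 tested genes ran from -5.17 to -0.49 there and from -3.57 to -2.71 in Peyer's patch. SERPINA1 and TF were higher in Peyer's patch, ALB (albumin) and TTR (transthyretin) were lower, and APOH was not called. These 5 genes had a median difference of 0.72 (SD 2.55). ALB and TTR differed by -3.43 ± 0.57 and -3.47 ± 0.65, and ALB in spleen ran from -2.47 to 2.16 where liver averaged 9.76. Of 4 pancreatic genes CELA1 (an elastase) was lower at -3.45 ± 0.34 and CLPS (colipase) higher by 1.32 ± 0.33, a call lost without animal 69 (0.97). Of 8 adipose genes 5 were higher (2 with another background correction), CIDEC (a lipid droplet protein) by 7.09 ± 0.43, and PPARG was lower at -4.4 ± 0.27. None of the 5 mesothelial genes had a tested probe. The part of such cells in the results was not tested. Among 15 reference genes HPRT1 was lower at -1.45 ± 0.17, 14 were not called, and B2M read -0.59 ± 0.16.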

How the data were processed

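Scanner output of 24 one-colour Agilent arrays (60305 probes without controls, 1 array per sample) was used. Per the submitters' processing notes, the authors extracted spots with Agilent Feature Extraction 10.10.1.1, and per the file headers the deposited intensity used here is its processed signal, already background-subtracted. The authors' deposited table of log2 values was not used, because its probe means hardly differ between slides 1 to 3 and slides 4 to 6 (SD 0.116, against 1.323 in the scanner values), while each of these tissues lay on one of the slide sets; Peyer's patch minus spleen in it correlated at only 0.322 with the scanner values over probes. Genome build: not given in the sources used here. Names came from the files and the RefSeq and symbol tables; 52.5% of the 41015 tested probes had one.

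Signals were taken as log2 less the 75th percentile of each array. Probes well above background on all 6 arrays of Peyer's patch or spleen and without outlier flags (90 probes had one) were fitted with limma 3.58.1 in R 4.3.3 (lmFit, eBayes), with animal as a block, on the 12 arrays; p-values were adjusted over all tested probes (Benjamini-Hochberg). Array number limits the precision, and no probe was saturated. A gene is read by its brightest probe; of 5099 genes with several probes, 19 had calls in opposite directions. The labels give the animal of each sample, which pairs the tissues; paired arrays' deviations from the tissue means correlated at 0.08 to 0.31. Scripts were tested on simulated data.

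The genes named are the 8 with the highest and the 8 with the lowest differences among called genes bright on all 12 arrays and of 1 direction in 6 animals, the 5 largest bounds in each direction, 2 genes with the largest difference in each of 36 lists, and anchor genes of each cell type, of which 10 had no tested probe; some other list members were added after their values were seen, and a few genes are not reported here. Of 720 list genes 529 were tested. Members and lists were chosen with earlier results of these data known, so list counts and medians are descriptions with no test. Alternatives changed the pairing, the arrays fitted, slide as a random block, scaling, background correction (normexp, offset 50), the filter, array weights, the probe rule and the animals left out; leaving out only the Peyer's patch array of animal 71 was chosen after seeing the data.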

Additional observations from a re-analysis of the deposited data

Results flagged for a closer look

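Among the 6 samples of each tissue, single arrays lay far from the others (Dixon's criterion) in 57 of 312 gene and list levels examined. For a single level chance alone gives about 1 in 20. The 312 levels share the same 12 arrays and the lists hold many of the genes, so their count cannot be judged against that rate. Most of the 57 were the Peyer's patch array of animal 71.

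On that array the mean level was the lowest for B cell genes (-0.57), germinal centre genes (-1.01), follicle and T zone organisers (-0.16), dendritic cell and MHC class II genes (1.58), M cell genes (0.29) and cell cycle genes (-0.47). It was the highest for epithelial adhesion and keratin genes (3.74), intestinal transcription factors (-0.95) and enteroendocrine genes (-0.35). Of single genes, GCSAM (-1.73), GP2 (-1.55), CR2 (-3.29), MS4A1 (-1.19), CD79B (0.68), BCL6 (1.98), CXCL13 (-0.06), CCL19 (1.07), CCR7 (-2.54), LTB (1.47), MCM6 (0.99), IL6 (-5.72), HPRT1 (0.68) and FABP6 (2.71) were the lowest there. LGALS4 (8.23), KRT8 (7.87), SLC5A1 (7.01), FABP2 (7.76), KRT20 (5.81), EPCAM (6.21), CDHR2 (2.96), SST (4.56), ALDH1A1 (4.2), LRAT (0.09), CIDEC (4.43) and ARG1 (-3.29) were the highest there.

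The spleen array of animal 73 was the highest spleen for the absorptive (-2.61), epithelial adhesion and keratin (-1.81) and goblet and Paneth cell lists (-1.31), and for LGALS4 (1.45), MTTP (-1.19), FCGBP (-2.23), CCL25 (0.37), FABP2 (-0.83), APOA4 (1.56), KRT20 (-1.74), EPCAM (-1.23) and DMBT1 (0.27).

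Elsewhere, the Peyer's patch array of animal 69 was the lowest for plasma cell and IgA transport genes (1.43), JCHAIN (2.13), GNLY (3.63) and ALB (-4.49), and that of animal 75 was the highest for WT1 (-4.76) and the lowest for XCR1 (-1.82). Spleen of animal 68 was the lowest for germinal centre genes (-0.92), of animal 70 for smooth muscle genes (2.23) and ACTA2 (6.89), and of animal 75 for TNP2 (-0.84).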

How the results depend on the processing

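Each of 18 alternatives was run on both totals, 35 list medians and 125 genes chosen by the naming rules; 102 of these genes kept their call in every alternative that tested them (the strictest filter tested 87). Without the replicate block 1079 genes were higher and 1462 lower, and of the genes named MYH11 lost its call (adjusted p = 0.058 by limma). In the fit of all 24 arrays without the block CCR7 gained one (-1.13, adjusted p = 0.046 by limma), and pairing changed no other call of a named gene. Leaving out each animal in turn gave 1070 to 1102 higher and 1312 to 1628 lower genes. With median centring 986 genes were lower (1475 higher), and with probes well above background on all 12 arrays 700 were higher (1338 lower). Median centring moved all 35 list medians up, by 0.26 to 0.27, which passed the spread between animals for T cell (-0.33), red pulp macrophage (-2.76), enteric neuron (0.37), retinoid (-0.02) and cytokine genes (-0.39); quantile normalization those of platelet (-0.46), enteric neuron (0.32) and retinoid genes (-0.14). With normexp they were -2.52 for red pulp macrophage, -2.26 for erythroid, 5.15 for absorptive, 4.6 for epithelial, 0.96 for intestinal transcription factor, 0.65 for enteroendocrine and -0.04 for pancreatic genes. With no filter erythroid, absorptive and pancreatic medians were -1.86, 5.41 and -0.1. With the strict filter, which tests fewer genes, they were -1.92, 4.17 and -0.1, with spleen patterning at -1.05, enteric neuron at -0.26, epithelial at 5.06, intestinal transcription factors at 1.42, enteroendocrine at 0.57 and retinoid at -0.49. Array weights gave -2.73 for red pulp macrophage genes. The mean of a gene's probes gave -1.04 for homing, -2.43 for erythroid, 2.75 for enteroendocrine and -2.25 for hepatocyte genes, and turned the direction of SLC4A1 (-2.33), MUC2 (2.03) and CHGA (3.07), whose probes disagree. Medians of M cell genes ran from -0.89, without animal 68, to -0.09, without the Peyer's patch array of animal 71 alone (an alternative chosen after seeing the data). Leaving out 1 animal, red pulp macrophage medians ran from -3.06 to -2.73 and retinoid medians from -0.35 to -0.14. Where no cause is given it was not tested. Signal limits the lowest levels: 101 genes were not well above background on any spleen array, so their differences rest on background in spleen.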
